A study of Mus musculus with 8 samples.

Results

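The 40 genes described here serve the first steps of the secretory pathway, in which new proteins enter the endoplasmic reticulum (ER), fold there and leave for the Golgi. They were taken as a list of gene names, with no threshold on their values in the rule. Of the 40 genes, 39 had a probe set that the platform annotation gives to 1 gene symbol, out of 17097 genes measured in this way, and Fkbp10, a prolyl isomerase of collagen folding, had none. Each gene is represented by its probe set with the highest mean, and the 39 genes had 81 probe sets in all. The cells were dermal fibroblasts of male mice of the strain C57Bl/6, with 4 mice aged 2 months (young), 4 aged 18 months (old), 1 Affymetrix array each and no treatment named in the labels. Per the labels' protocols, skin without subdermis was digested with collagenase, cells carrying Pdgfra and CD34 and lacking CD45, CD117, CD24, CD31 and EpCam were sorted, and RNA of 5000 cells per mouse was amplified for 21 cycles. Each array is a separate animal, so p-values rest on the spread between mice, and the number of arrays limits the precision. The comparison asks how these genes differ between young and old fibroblasts.

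Fibroblasts secrete large amounts of collagen, and procollagen is folded by general ER chaperones and by enzymes of its own before it leaves the ER. BiP, encoded by Hspa5, binds unfolded chains, calnexin and calreticulin hold glycoproteins while they fold, and protein disulfide isomerases form disulfide bonds. Folded cargo leaves in vesicles with a COPII coat, where TANGO1 (Mia3) is needed for the bulky procollagen, and COPI vesicles bring escaped ER proteins back. When unfolded chains gather, the unfolded protein response, through XBP1, ATF6 and other factors, raises the chaperone genes. ATF6 and XBP1 act with NF-Y on the ER stress response element in the promoters of those genes.

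The arrays of the 8 mice had medians between 5.06 and 5.14 on the log2 scale. The gate's marker Cd34 read 10.76 to 10.90 in young and 10.97 to 11.05 in old mice (difference 0.20, limma adjusted p = 0.129). The collagen gene Col1a1 had a mean of 13.1. The other gate marker, Pdgfra, read 4.78 to 5.36 in young and 4.22 to 4.85 in old mice on its probe set. Its difference was -0.59 (limma adjusted p = 0.0808, and 0.0464 with the title number runs described below as a block). These levels are near the threshold of 5.10 (the median of all probe set means), and probe sets up to that level are called dim here. Of 5 plasma and B cell markers 3 were dim, with list means of 4.88 to 5.01 in young and 5.03 to 5.09 in old mice. Cd79a, with a mean of 6.85, read higher in every old than in every young mouse, by 0.455 (limma adjusted p = 0.0544). Cd79b, also not dim, differed by 0.025. Of 7 leukocyte markers 4 were dim, Ptprc (CD45) among them with a mean of 3.47. Csf1r, Cd68 and Fcer1g were not dim, with means of 8.83, 6.75 and 5.39. Among 6 melanocyte markers, Mlana was higher in old mice by 2.88 (limma adjusted p = 0.00194) while Tyr, Tyrp1 and Dct were dim in both ages. Sox10 and Pmel, with means of 6.275 and 5.455, differed by -0.005 and -0.085. Of 4 mural cell markers Kcnj8 was higher in old mice by 1.16 (limma adjusted p = 0.0035). The others, Rgs5, Myh11 and Notch3, differed by -0.045, -0.035 and 0.0375, with Rgs5 and Notch3 dim. Of the 8 fibroblast markers Thy1 was lower in old mice by 0.61 (limma adjusted p = 0.00176). Endothelial, mature adipocyte, mast cell and muscle lists had 2 of 5, 2 of 3, 4 of 5 and 4 of 5 markers dim and none called. The part of any of these cells in the results below was not tested. In RNA of whole sorted populations, fewer cells of a type and less RNA per cell cannot be told apart.

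Promoters are shown first for the genes that hold an ER stress response element, the sequence through which the unfolded protein response is known to act. The RefSeq promoter table (GRCm38.p6, 250 bases before to 50 after each gene's start) held 31 of the 40 genes. The ER stress response element was searched on both strands as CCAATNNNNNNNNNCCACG. It matched the promoters of 7 of the 31 genes (22.6%), against 37 of all 27025 genes of the table (0.137%) and 39 of its 32851 promoters (0.119%). Dnajb9, Sdf2l1, Pdia4 and P4hb, which also serve folding, had promoters without an exact match. Each match is given below on its gene's strand with the 6 bases either side in lower case and the match in capitals. A match that begins with CGTGG is the element read on the opposite strand.
Hspa5, chr2:34772019-34772049: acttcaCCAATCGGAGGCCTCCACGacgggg
Hsp90b1 distal, chr10:86705632-86705662: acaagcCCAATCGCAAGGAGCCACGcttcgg
Hsp90b1 proximal, chr10:86705527-86705557: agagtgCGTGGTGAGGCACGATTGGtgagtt
Pdia6, chr12:17266485-17266515: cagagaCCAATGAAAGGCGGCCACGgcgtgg
Calr, chr8:84847069-84847099: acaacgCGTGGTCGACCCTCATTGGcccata
Canx, chr11:50325794-50325824: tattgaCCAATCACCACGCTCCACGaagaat
Creld2, chr15:88819514-88819544: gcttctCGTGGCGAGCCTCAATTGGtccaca
Dnajc3, chr14:118937821-118937851: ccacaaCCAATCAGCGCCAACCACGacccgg
All 8 matches lie before the start, with the Hspa5 match 65 to 47 bases and the distal Hsp90b1 match 212 to 194 bases away.

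The second form of the element, ATTGGNCCACG, which places CCACG next to an inverted CCAAT box, matched Herpud1 among the 31 genes and 12 of all genes (0.0444%). The unfolded protein response element TGACGTGG matched Kdelr3, Sec24d and Sec23a (9.68% of the 31 genes against 0.714% of all genes), in Sec23a after the start. The short motif CCACG, which is part of all of these elements (of the last on the opposite strand), was in 23 of the 31 genes (74.2%) and in 35.5% of all genes. The matches before the start read as follows, again with the match in capitals.
Herpud1, chr8:94386371-94386393: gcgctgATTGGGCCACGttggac
Sec24d, chr3:123267464-123267483: ggcgccTGACGTGGcactag
Kdelr3, chr15:79516372-79516391: gccccgCCACGTCAccgcgc
The 250 bases before the start of Hspa5, the gene of BiP, are shown whole (chr2:34771840-34772089, + strand), with the exact element in capitals.
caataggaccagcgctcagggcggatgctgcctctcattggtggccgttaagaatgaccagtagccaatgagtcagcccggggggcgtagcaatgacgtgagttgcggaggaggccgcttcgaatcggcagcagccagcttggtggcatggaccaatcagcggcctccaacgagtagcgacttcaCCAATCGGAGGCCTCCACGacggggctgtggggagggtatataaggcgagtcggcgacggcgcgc
A match is a description of letters and no measure of binding.

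With age, 0 of the 39 genes passed the limma test at adjusted p under 0.05, where 679 of all 17097 genes did (3.97%). The median difference of old minus young was -0.025 (log2) over the 39 genes and 0.01 over all genes, and single genes lay between -0.32 and 0.33. At an unadjusted p under 0.05, limma had 1 gene higher (Canx) and 3 lower (Sec24d, Lman1, Crtap), while 15.1% of all genes were below that p. The old and young mice did not overlap for 2 genes, Herpud1 and Sar1a, against 9.7% of all genes. The 95% interval of the difference lay within 0.5 either way for 24 genes and within 1 for 38, so that for most of these genes a difference above 0.5 was outside the interval. The widest interval belonged to Sdf2l1, from -0.34 to 1.00. The lowest limma adjusted p of any of the 39 was 0.174, for Sec24d.

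**Figure D1:**
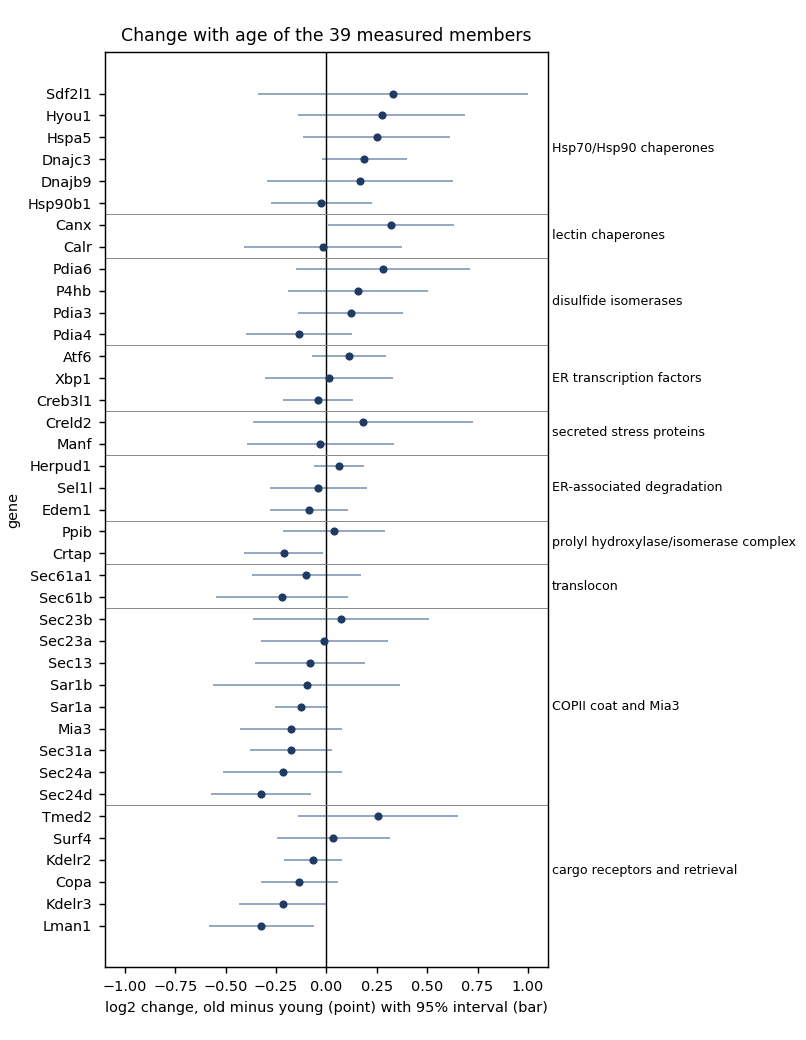
Log2 difference of old minus young for each of the 39 genes (points) with its 95% interval from limma (bars), ordered by role. The points run from -0.32 to 0.33, and most of the coat and transport genes in the lower part lie left of 0 while most of the BiP group at the top lies right of it.

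The BiP group holds BiP itself (Hspa5), the ER Hsp90 GRP94 (Hsp90b1), the Hsp70-like Hyou1, the BiP co-chaperones Dnajb9 and Dnajc3, and Sdf2l1, which works with them. With age 5 of the 6 had a positive difference and none passed the test, with a median of 0.22. A positive difference was found for 53.8% of all genes and for 49% of those above the dim threshold. Dnajc3 had the smallest p and read 9.90, 9.90, 9.90 and 10.02 in young replicates 1 to 4 and 9.93, 10.00, 10.33 and 10.21 in old replicates 1 to 4. The difference was 0.19 ± 0.09 (SE; limma adjusted p = 0.406), and the values of old replicates 1 and 2 lay within the young range. All 5 of its probe sets had positive differences, from 0.19 to 0.93, and 0 of the 81 probe sets passed limma's test over all 45141 probe sets (2.57% of which did). Without old replicate 3 the difference of Dnajc3 was 0.12. Hspa5 read 10.25, 10.24, 10.44 and 10.57 in the young and 10.33, 10.31, 10.96 and 10.90 in the old mice, in replicate order. Its difference of 0.25 ± 0.16 (SE; limma adjusted p = 0.558) rested on old replicates 3 and 4, which lay above every young mouse, while the other two lay inside the young range. Hsp90b1, with levels of 11.21 to 11.34 in young and 11.01 to 11.46 in old mice, had a difference of -0.025. Its old values lay on both sides of all young values.

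The lectin chaperones are calreticulin (Calr), soluble in the ER, and calnexin (Canx), anchored in its membrane. Canx read 10.11, 10.24, 10.42 and 9.75 in young and 10.38, 10.27, 10.55 and 10.61 in old mice. The difference of 0.32 ± 0.14 (SE) did not pass the test (limma adjusted p = 0.307), and young replicate 3 lay above old replicates 1 and 2. Without young replicate 4 the difference was 0.20. Calr had a difference of -0.018, with 9.97 to 10.41 in young and 9.80 to 10.57 in old mice. Of the 4 disulfide isomerases, P4hb, which is also the beta subunit of collagen prolyl 4-hydroxylase, Pdia3, Pdia4 and Pdia6, 3 had positive differences and none passed. Pdia6 had the smallest p of them, with 9.21, 9.16, 9.22 and 8.43 in young and 9.02, 9.10, 9.57 and 9.45 in old mice. Its difference of 0.28 ± 0.19 (SE; limma adjusted p = 0.588) was 0.088 without young replicate 4, the lowest of all mice, and 0.18 without old replicate 3. P4hb differed by 0.16 and Pdia4 by -0.14, and Pdia3, at a low mean level of 6.01, by 0.12.

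None of the 3 transcription factors of the ER passed the test. Xbp1, whose spliced mRNA encodes the active factor, differed by 0.012, and Creb3l1 (OASIS), a membrane-bound factor that drives collagen genes in bone, by -0.042. Atf6 had the smallest p of the 3, with 5.35, 5.54, 5.51 and 5.37 in young and 5.63, 5.63, 5.58 and 5.38 in old mice and a difference of 0.11 ± 0.08 (SE; limma adjusted p = 0.616). Its level was near the dim threshold, and old replicate 4 lay within the young range. Splicing of Xbp1 and cleavage of Atf6 and Creb3l1 are not read by these values. The secreted proteins Manf and Creld2, both induced by ER stress, differed by -0.03 and 0.18. Creld2, with the smaller p, read 10.27, 10.33, 10.25 and 9.91 in young and 9.73, 10.07, 10.77 and 10.92 in old mice (limma adjusted p = 0.835). Its difference was 0.089 without young replicate 4 and from 0 to 0.40 when each old mouse was left out. Its SD was 0.57 in old and 0.19 in young mice.

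ER-associated degradation sends misfolded chains to the proteasome. Herpud1, a scaffold of that machinery, read 10.48, 10.47, 10.46 and 10.45 in young and 10.51, 10.50, 10.53 and 10.57 in old mice. The groups did not overlap (exact permutation p = 0.0286, the smallest possible with 4 against 4 mice), but the difference was 0.062 ± 0.056 (SE; limma adjusted p = 0.713). Edem1, a lectin that picks glycoproteins for degradation, differed by -0.085, with 0.32 on its other probe set, and Sel1l, which anchors the ubiquitin ligase, by -0.04. Of the complexes that modify and fold procollagen chains, Crtap read 10.72, 10.61, 10.75 and 10.56 in young and 10.25, 10.43, 10.58 and 10.53 in old mice. Crtap is part of the complex that hydroxylates a single proline of collagen chains, together with cyclophilin B (Ppib). Its difference was -0.21 ± 0.09 (SE; limma adjusted p = 0.273), and 1 old mouse lay above the lowest young mouse. Ppib differed by 0.038.

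Entry into the ER runs through the Sec61 channel. Sec61b, a small subunit with the smaller p of the 2 channel genes, read 10.16, 10.31, 10.37 and 10.30 in young and 9.71, 9.86, 10.37 and 10.32 in old mice, a difference of -0.22 ± 0.15 (SE; limma adjusted p = 0.567). Old replicates 1 and 2 lay below every young mouse and the other two within or at the top of the young range. Without old replicate 1 the difference was -0.10. The channel subunit Sec61a1 differed by -0.10.

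Exit from the ER runs through the COPII coat, in which the GTPases Sar1a and Sar1b recruit the Sec23 and Sec24 inner coat and the Sec13 and Sec31 outer coat. Of these genes and Mia3, 8 of 9 had negative differences, with a median of -0.12, and none passed the test. Positive differences made up 11.1% of these genes, against 53.8% of all genes and 49% of those above the dim threshold. Sec24d, a cargo-binding subunit of the inner coat, read 9.34, 9.41, 9.56 and 9.62 in young and 8.87, 9.17, 9.26 and 9.34 in old mice. Old replicate 4 equalled the lowest young mouse and the other 3 old mice lay below it. The difference of -0.32 ± 0.11 (SE) had a limma adjusted p of 0.174. With the title number runs described below as a block the same difference had an SE of 0.077 and a limma adjusted p of 0.0495, and 5.38% of all genes passed in that fit. Over all settings the adjusted p of Sec24d lay between 0.0495 and 0.339, and no other of the 39 genes passed at 0.05 in any of them.

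Sar1a read 11.12, 11.17, 11.17 and 11.14 in young and 10.97, 11.00, 11.07 and 11.06 in old mice. Every old mouse lay below every young mouse (exact permutation p = 0.0286), by a mean difference of -0.12 ± 0.06 (SE; limma adjusted p = 0.358), and its other probe set differed by 0.04. Sec24a, Sec31a and Mia3 differed by -0.22, -0.18 and -0.18, Sar1b and Sec13 by -0.098 and -0.082, and Sec23a and Sec23b by -0.01 and 0.072. All 4 probe sets of Mia3 had negative differences, from -0.18 to -0.048, while the other probe set of Sec24a, a dim one, differed by 0.14.

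Cargo receptors and retrieval genes had 4 of 6 negative differences, a median of -0.10, and none passed. Lman1 (ERGIC-53), a lectin that carries glycoproteins to the Golgi, read 11.26, 11.34, 11.26 and 10.97 in young and 10.62, 10.84, 11.08 and 11.00 in old mice. Its difference was -0.32 ± 0.12 (SE; limma adjusted p = 0.204), and old replicates 3 and 4 lay above young replicate 4 and below the other young mice. The 5 probe sets of Lman1 all had negative differences, from -0.48 to -0.22. Their lowest limma adjusted p over all probe sets, 0.0928, came from a dim set with a mean of 4.24, and the next, 0.106, from a set with a mean of 10.6. The KDEL receptors, which return escaped chaperones, differed by -0.068 (Kdelr2) and -0.22 (Kdelr3), and the COPI subunit Copa by -0.14. On its other probe set, with a mean of 10.0, Kdelr2 differed by -0.24 (limma adjusted p over all probe sets = 0.151). That set read 10.08 to 10.24 in young and 9.77 to 10.03 in old mice, with no overlap. The cargo receptor Surf4 differed by 0.035, and the p24 protein Tmed2 by 0.26 on its brightest probe set and by -0.43 to 0.26 over its 7 probe sets. Of the 21 genes with several probe sets, 10 had differences of both signs.

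**Figure D2:**
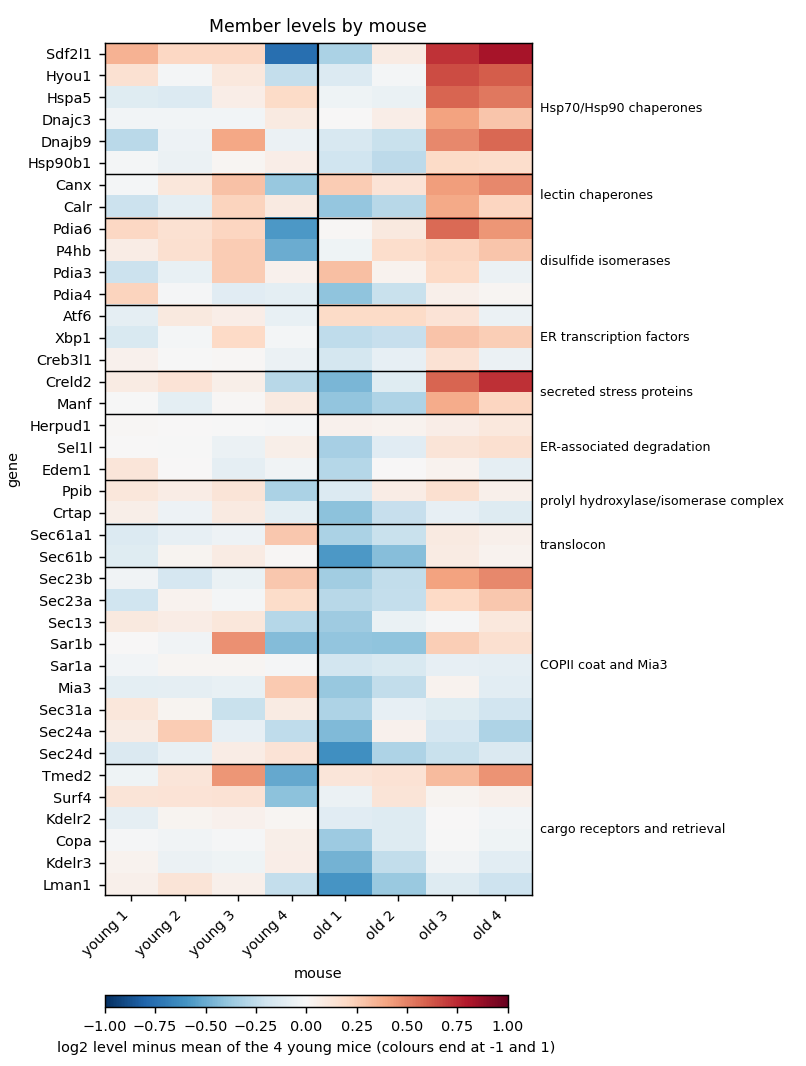
Log2 level of each of the 39 genes in each mouse minus the mean of the 4 young mice, in colours that end at -1 and 1. Old replicate 1 was the lowest mouse for 22 genes, and old replicates 3 and 4 were each the highest for 10.

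For most of the 39 genes the values were spread more widely in old than in young mice. All 39 were read in the same 8 mice, and the difference in spread was not tested. The SD was larger in old than in young mice for 29 of the 39 genes (74.4%, against 55.1% of all genes), with a median log2 ratio of SDs of 0.66 (0.14 over all genes). Without young replicate 4, which was the lowest of the 8 mice for 10 genes, the SD was larger in old mice for 35 genes. The median ratio was then 1.63 (0.38 over all genes, 63.6% of which had the larger SD in old mice). Taking an extreme mouse from the young group alone lowers the young SD where that mouse is extreme. Old replicate 1, the lowest mouse for 22 genes, was kept, so no conclusion is drawn from the larger ratio. All 6 genes of the BiP group had the larger SD in old mice, and 1 of the 4 disulfide isomerases did.

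The split of the old mice followed the numbers in the sample titles, which fall into 2 runs, each with 2 young mice (replicates 1 and 2, then 3 and 4) and 2 old mice of the same replicate numbers. Each collection day of the study had 2 mice of either age, and whether the title runs are those days is not stated. The comparison of runs was chosen after the values were seen, so its numbers describe these mice. In old mice the difference of the second minus the first run was positive for 36 of the 39 genes (92.3%, against 44.7% of all genes and 55.5% of those above the dim threshold). Its median was 0.29, against -0.025 over all genes and 0.035 over those above the dim threshold, where all 39 lie. Both old mice of the second run lay above both of the first for 32 genes, against 24% of all genes and 3494 of the 10560 above the dim threshold. No gene of the 39 passed limma's adjusted threshold for this difference, which 0.164% of all genes did. At an unadjusted limma p under 0.05, 20 were higher, against 10.8% of all genes and 1706 of the 10560 above the dim threshold. None was lower at that p.

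The 3 largest differences between the old mice were those of Creld2, Sdf2l1 and the coat gene Sec23b. Creld2 was higher by 0.94 ± 0.15 in the second run (SE; limma adjusted p = 0.0565), with 9.73 and 10.07 against 10.77 and 10.92. Sdf2l1 read 7.60 and 8.00 against 8.64 and 8.74, a difference of 0.89 ± 0.28 (SE; limma adjusted p = 0.17). Hspa5, with the lowest adjusted p, differed by 0.61 ± 0.09 (SE; limma adjusted p = 0.0533), a 1.53-fold difference. Dnajb9 differed by 0.72, Hyou1 by 0.70, Manf by 0.64, Calr by 0.63 and Xbp1 by 0.51. Of the entry and exit genes, the coat genes Sec23b and Sar1b differed by 0.74 and 0.60 and the channel subunit Sec61b by 0.56. In contrast Herpud1, Sar1a, Sec31a and Surf4 differed by 0.045, 0.08, 0.035 and 0.005, and Atf6, Pdia3 and Sec24a were the 3 genes with negative differences (-0.15, -0.095 and -0.035). The median by role was 0.80 in the 2 secreted proteins, 0.66 in the BiP group, 0.45 in the Sec61 channel and 0.44 in the lectin chaperones. It was 0.28 in the coat genes, 0.26 in the disulfide isomerases, 0.24 in cargo receptors and retrieval, 0.18 in the collagen complexes, 0.18 in the transcription factors and 0.12 in degradation.

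**Figure D3:**
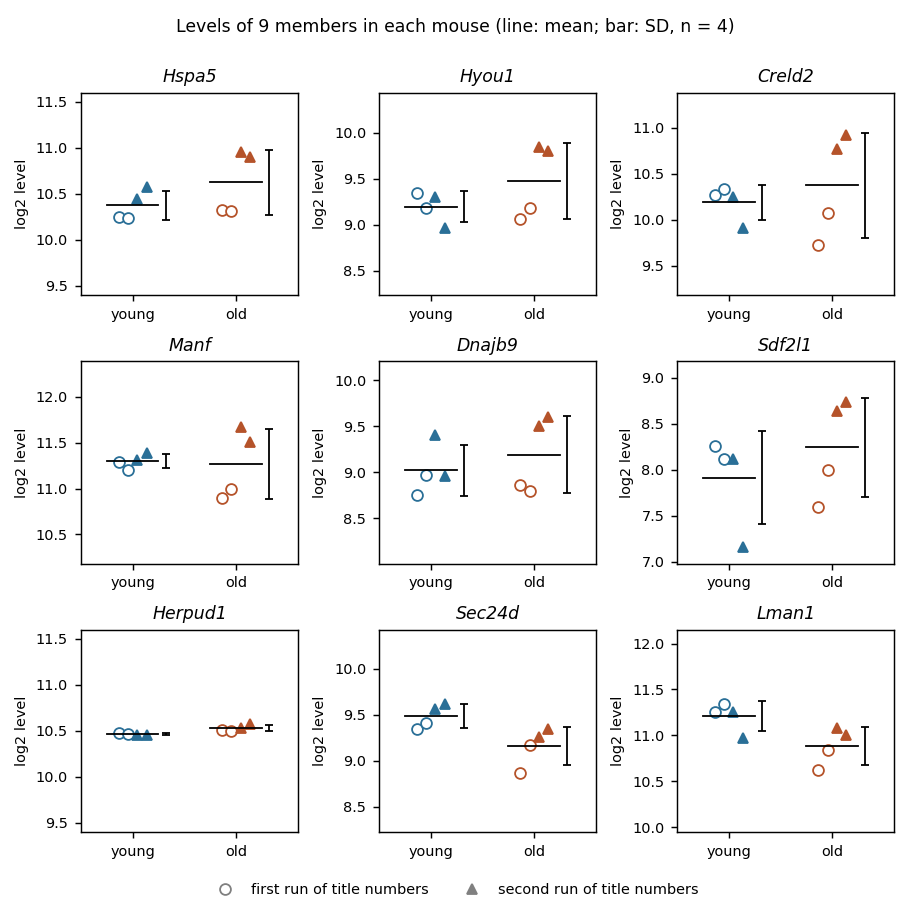
Log2 level of 9 of the genes in each mouse, young in blue and old in brown, with open circles for the first and filled triangles for the second run of title numbers; lines are means and bars SDs (n = 4). For Hspa5, Hyou1, Creld2, Manf, Dnajb9 and Sdf2l1 the 2 old triangles lie above the 2 old circles, by 0.61 to 0.94 on average, and Herpud1 differs by 0.045.

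In young mice the same runs had a median difference of -0.005. The second run lay above the first in both mice for 8 genes, against 12.6% of all genes and 1574 of the 10560 above the dim threshold. No gene of the 39 passed limma's adjusted threshold in young mice (0% of all genes did), and 2 were below an unadjusted p of 0.05, against 7.45% of all genes. The BiP gene Hspa5 differed by 0.26 in young mice, Calr by 0.32 and Dnajb9 by 0.32, whereas Creld2, Hyou1 and Sdf2l1 differed by -0.22, -0.14 and -0.55. The difference between the ages in the run difference was tested with limma, and none of the 39 genes passed (0% of all genes did). Of the 39, 12 were below an unadjusted p of 0.05, against 7.33% of all genes and 1106 of the 10560 above the dim threshold. The lowest limma adjusted p was 0.398, for Creld2. A larger split in old than in young mice is therefore not shown for any single gene.

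**Figure D4:**
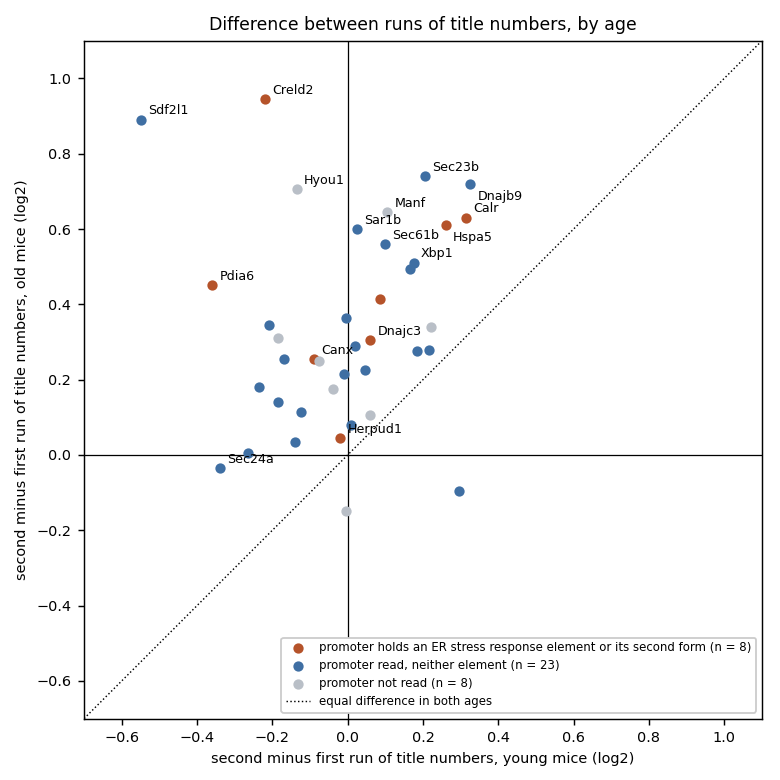
Difference of the second minus the first run of title numbers in young mice (horizontal) and old mice (vertical), in log2 units, with 1 point per gene, coloured by whether the promoter holds an ER stress response element or its second form. Of the 39 points 36 lie above 0 on the vertical axis, and on the horizontal axis they lie on both sides of 0.

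The calls between the runs in old mice moved with the setting. None of the 39 passed in the fit reported (28 or 0.164% of all genes). The same held with the dimmest probe set above the dim threshold (45 or 0.263% of all genes). With quantile normalization again none of the 39 passed either (1 or 0.00585% of all genes). With the mean of all probe sets 5 of the 39 passed limma's threshold (Creld2, Hspa5, Hyou1, Manf and Xbp1), as did 67 of all genes (0.392%). With arrays centred on their median 2 passed (Hspa5 and Manf; 50 or 0.292% of all genes), and with dim genes left out Creld2 did (57 or 0.54% of the 10560 genes kept). Leaving out any mouse leaves 1 mouse of its age in its run, so the calls of those fits are not read here. The median of the 39 genes lay between 0.21 and 0.39 over the settings run for this difference, which changed the dim filter, the probe set rule, the scaling and the mice.

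Keratinocyte markers moved with the same split. Their mean over 7 markers was 5.82 in old mice of the first run and 6.59 in those of the second, against 5.84 and 5.89 in young mice. By mouse that mean ranged from 5.60 to 6.18 in young and from 5.79 to 6.94 in old mice, and 2 of the 7 markers were dim. Both old mice of the second run lay above both of the first for 5 of the 7 markers. Krt5 read 7.44 and 7.15 against 8.78 and 8.43, and Krt10 read 6.23 and 6.48 against 9.13 and 6.84. Cdh1 was dim in all 8 mice (3.55 to 3.79). Epcam, a marker the sort selected against, read 4.96 to 5.13 in young and 5.23 to 5.61 in old mice. Its difference with age was 0.4 (limma adjusted p = 0.0584). Of the 7 leukocyte markers, both old mice of the second run lay above both of the first for 2 and below them for 2. Cd68, among the former, read 6.41 and 6.69 against 6.92 and 7.26. The part of keratinocyte or leukocyte RNA in the split of the 39 genes was not tested.

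Within the first run the 39 genes had a median difference of old minus young of -0.175, 32 being negative, and both old mice lay below both young mice for 26 (22.6% of all genes). Within the second run the median was 0.14, 27 differences were positive, and both old mice lay above both young mice for 16 genes (22% of all genes). For 21 genes the difference was negative in the first run and positive in the second, which held for 21% of all genes. Creld2 had -0.40 in the first and 0.76 in the second, Sdf2l1 had -0.39 and 1.05, and Hyou1 -0.14 and 0.70. Sec24d had -0.36 and -0.29, and Mia3 -0.22 and -0.13.

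The 7 genes whose promoters held the ER stress response element had a median run difference in old mice of 0.45, from 0.26 (Canx) to 0.94 (Creld2), and a median age difference of 0.19. The 24 genes with a promoter and no such element had medians of 0.26 and -0.084. In young mice the medians of the run difference were 0.06 and 0.0025. The ranges overlapped, since Sdf2l1, with 0.89, had no exact element, and Herpud1, with the element's second form, differed by 0.045. These values are given as a description with no test. The 3 genes with TGACGTGG, Kdelr3, Sec23a and Sec24d, had run differences in old mice of 0.29, 0.50 and 0.28.

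Other genes of the same pathway were read from 7 lists of 191 symbols, older and current names included, of which 160 were measured. With age 1 rose and 1 fell in limma, where 3.97% of all genes passed. An unadjusted p under 0.05 was found for 24 (6 higher, 18 lower in old mice; 15.1% of all genes had one), and the median difference was -0.03. The riser was Ngly1, which removes N-glycans from proteins on their way to degradation, with 5.22, 5.15, 5.21 and 5.08 in young and 5.43, 5.55, 5.54 and 5.45 in old mice. Its difference was 0.33 ± 0.06 (SE; limma adjusted p = 0.0236, and 0.0106 to 0.0797 over all settings), at a level near the dim threshold. It did not pass without young replicate 2 (0.0698) or 4 (0.0523) or without old replicate 2 (0.0797), 3 (0.0655) or 4 (0.0538). Plod1, a lysyl hydroxylase of procollagen, read 10.57, 10.61, 10.41 and 10.27 in young and 9.81, 10.10, 10.18 and 10.02 in old mice and fell by 0.44 ± 0.10 (SE; limma adjusted p = 0.0497). Its adjusted p lay between 0.0168 and 0.916 over all settings, and leaving out any mouse but young replicate 4 ended the call (0.0576 to 0.132).

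In the remaining lists no gene passed, and the genes with the smallest p had negative differences. The folding list, with 33 measured genes, was led by the prolyl isomerase Fkbp11 (-0.65 ± 0.16 SE; limma adjusted p = 0.0603), with 9.20, 9.12, 9.13 and 8.58 in young and 8.04, 8.29, 8.64 and 8.46 in old mice. The mean of its 3 probe sets differed by -0.17. Serpinh1 (HSP47), the collagen-specific chaperone of that list, differed by -0.105 (limma adjusted p = 0.53). The list of the translocon and glycosylation, with 25 measured, was led by Tram2 (-0.50, limma adjusted p = 0.0615). Tram2, a relative of the translocon protein TRAM, read 10.23, 9.65, 9.80 and 9.86 in young and 9.19, 9.37, 9.49 and 9.49 in old mice, with no overlap. In the COPII list, with 32 measured, the SNARE Stx5a differed by -0.40 (limma adjusted p = 0.0733), and by 0.24 on the dimmest of its probe sets that is not dim. Its brightest set read 8.94, 9.12, 9.02 and 8.95 in young and 8.33, 8.58, 8.78 and 8.75 in old mice, with every old mouse below the young. Copz2, a COPI subunit, led the 20 retrieval genes (-0.27, limma adjusted p = 0.148), with 12, 12, 12.01 and 11.77 in young and 11.49, 11.68, 11.76 and 11.77 in old mice. Young replicate 4 equalled the highest old mouse. Creb3, a membrane-bound factor, led the 15 genes of unfolded protein response signalling (-0.39, limma adjusted p = 0.219), with 9.90, 10.01, 9.98 and 10.13 in young and 9.20, 9.50, 9.90 and 9.85 in old mice. Its difference was -0.24 with the mean of its probe sets, -0.088 on the dimmest that is not dim and -0.26 without old replicate 1. Between the runs in old mice the 160 genes had a median of 0.22, with 0.38 in the translocon and glycosylation list and -0.055 in the 16 collagen modification genes. The 19 genes of the degradation list had a median of 0.22.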

How the data were processed

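Expression was measured in 8 sorted fibroblast samples, 4 young and 4 old. The deposited values are log2 expression per probe set, which the authors made with RMA and the affy package, as the submitters' processing notes state. Versions and parameters were not given in the sources used here. RMA brings arrays to a common distribution, so shifts of all genes cannot be seen. The table held 45141 probe sets from 2.98 to 13.32. The platform annotation gave 28898 of them 1 gene symbol, 551 several and 15692 none. For each of 17097 genes the probe set with the highest mean was kept. Levels of different probe sets are not comparable.

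Old and young were compared with limma 3.58.1 in R 4.3.3 (2-sided test of lmFit and eBayes). P-values were adjusted over all genes by Benjamini-Hochberg, and 0.05 was the threshold. Run differences came from a limma fit with 1 mean per age and title run. A p from an exact permutation test used all splits of the 8 mice. Intervals are 95%. Figures used Python 3.11.15 and matplotlib 3.10.9. Scripts were tested on simulated data.

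The members and lists were chosen with earlier results of these data known. Values of every mouse are given by rule for the gene with the smallest p in each role, and for called genes or the smallest p in each other list. Further genes (Hspa5, Sar1a, the largest run differences, Serpinh1) were chosen after their values were seen. Alternatives changed the prior, array weights, the dim filter, the probe set rule, scaling, a title run block, the threshold and the mice. Promoter sequences are from RefSeq.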

Additional observations from a re-analysis of the deposited data

Results flagged for a closer look

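In groups of 4 mice, the gap of the highest or lowest mouse to its nearest neighbour was set against the group's whole range and read against Dixon's 95% critical value for 4 values. Chance flags about 1 in 20 groups, and 8 of the 78 groups of the 39 genes passed, all in young mice. Young replicate 4 was the low mouse for Pdia6 (ratio 0.924, 8.43 against 9.16 to 9.22), Sdf2l1 (0.873, 7.16 against 8.12 to 8.26), Ppib (0.867, 10.26 against 10.65 to 10.71), Sec13 (0.9, 9.79 against 10.15 to 10.19) and Surf4 (0.964, 11.11 against 11.65 to 11.67). The same mouse was the high one for Mia3 (0.944, 10.72 against 10.36 to 10.38) and Dnajc3 (ratio 1, 10.02 with the other young mice at 9.90). For Kdelr2 young replicate 1 was low (0.846, 11.90 against 12.01 to 12.03).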

How the results depend on the processing

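The count of the 39 genes called with age was 0 in the fit reported and in every alternative except the title run block (1 gene, Sec24d), and their median difference stayed between -0.096 and 0.059, with -0.175 within the first and 0.14 within the second title run. The 160 other pathway genes, with 2 called, had 4 with the prior by mean level, 1 with the robust prior, 8 with array weights, 4 with dim genes left out, 1 with the dimmest probe set above the dim threshold, 1 with arrays centred on their median, 7 with quantile normalization again, and 0 and 9 at thresholds of 0.01 and 0.10, and 0 to 3 when each mouse was left out in turn. Over all genes, thresholds of 0.01 and 0.10 gave 270 and 1082 calls, and leaving out each mouse 427 to 606. For the difference between title runs in old mice, 1 of the 39 genes passed with dim genes left out (57 of the 10560 kept), 5 with the mean of probe sets (67 of all genes), 2 with arrays centred on their median (50 of all genes), and 0 to 11 when each mouse was left out (0 to 264 of all genes). The cause of these moves was not tested. Ngly1 and Plod1 lost their call in 6 and 13 alternatives, the threshold of 0.01 included, and the dimmest probe set gave Plod1 a difference of -0.055. Fkbp11, Tram2 and Stx5a passed in 6, 4 and 3 alternatives, the threshold of 0.10 included. No paired analysis was possible because the labels give no replicate numbers that the ages share; replicates were numbered in accession order.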
